A study of Drosophila melanogaster with 18 samples.

Results

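Transcript levels of whole Nxt1 trans-heterozygous larvae of Drosophila melanogaster were followed across the end of larval life, with stationary larvae set against wandering larvae. The 6 larval samples of this genotype, 3 per stage, were chosen by their labels for genotype and stage, of 18 samples in the series. The trans-heterozygotes carried the Nxt1 alleles DG05102 and Z2-0488 over each other, and their strain is labelled yw. They were compared where stated with stationary and wandering larvae of the white-eyed laboratory strain w1118, also 3 samples per stage, so genotype and strain background cannot be told apart. Stages were scored on food holding 0.05% bromophenol blue: larvae that had stopped moving and had emptied or nearly emptied their guts of dye were stationary, and last-instar larvae with dyed guts were wandering. Sex, age in hours and the number of animals per sample are not given in the labels, nor are the lesions of the alleles.

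The authors' deposited tables hold 1 FPKM value (fragments counted per kilobase of transcript and relative to all fragments of the library) per gene, genotype and stage, pooled over the 3 samples. No value per sample and no count is in these tables, so the depth and the spread between samples of a stage cannot be given, and the stage change within the trans-heterozygotes is a description without a test. It is given as the log2 ratio of stationary over wandering FPKM, after adding 1 FPKM to each, minus the median over the 9925 genes with at least 1 FPKM at both stages. That median was 0.09, and the values are called centred log2 changes below; 1 equals a doubling. The only test made was of the difference between the stage changes of the 2 genotypes, with standard errors (SE) obtained from the test statistics in the authors' tables. This two-sided normal test was run on 10459 genes, and q is its p-value after Benjamini-Hochberg adjustment over them. The q values rest on the errors behind the authors' test statistics, which cannot be shown to be each gene's own spread between samples. Nothing in the labels says that the samples of a group came from separate cultures, so that spread may be technical. A positive difference means a higher stationary to wandering ratio in the trans-heterozygotes than in w1118.

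Nxt1 is the small partner of the nuclear RNA export factor encoded by sbr, and the pair carries messenger RNA through nuclear pores. At the end of larval life a pulse of the steroid hormone ecdysone switches the salivary gland from glue synthesis to secretion, directs formation of the puparium and starts the breakdown of larval tissues. Ecdysone acts through its receptor EcR and a set of early transcription factors, which in turn drive late genes such as those of the 71E cluster. The fat body is the larval store of protein and fat and also the main source of the secreted antimicrobial peptides, which the Toll and Imd pathways induce.

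Nxt1 itself had 15.5 FPKM in stationary and 9.28 FPKM in wandering trans-heterozygotes, a centred log2 change of 0.59. In w1118 it had 11.5 FPKM in stationary and 11.6 FPKM in wandering larvae, and the difference between the genotypes' changes was 0.76 ± 0.95 (SE) and did not pass. Its locus overlaps that of a neighbouring gene, so the value may hold reads of both. The export receptor gene sbr had 42.7 FPKM in stationary and 40.6 FPKM in wandering trans-heterozygotes and a centred log2 change of -0.02.

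Most genes kept close to their wandering level. Of 14542 gene entries, 10534 were measured, meaning that the larger of the 2 stage values was at least 1 FPKM and neither table gave a failed status, and the quartiles of the centred changes were -0.22 and 0.22. At least 2-fold higher in stationary trans-heterozygotes were 337 genes (3.2%), and 434 (4.12%) were at least 2-fold lower. Among changes of at least 4-fold the balance was the other way, with 136 genes higher and 55 lower. A gene of low level can be measured only through the stage at which it is higher, so the counts over measured members below are descriptions. Defining markers of salivary gland, fat body, muscle, midgut, blood cells, neurons and epidermis were all present at both stages. In bulk RNA of whole larvae, fewer cells of a type and less RNA per cell cannot be told apart.

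The groups that were higher in stationary trans-heterozygotes were those of infection and stress. Every measured antimicrobial peptide, IM peptide, Turandot peptide and Hsp70 entry was at least 2-fold higher, and so were 6 of 7 measured genes of the ecdysone-induced 71E cluster. At least 2-fold lower were 11 of 12 measured larval cuticle entries, 5 of 6 thick filament and 5 of 11 thin filament entries, 3 of 6 larval serum and fat body protein genes, 11 of 28 digestive serine proteases, 7 of 15 glycolytic genes and 6 of 13 blood cell genes.

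**Figure D1:**
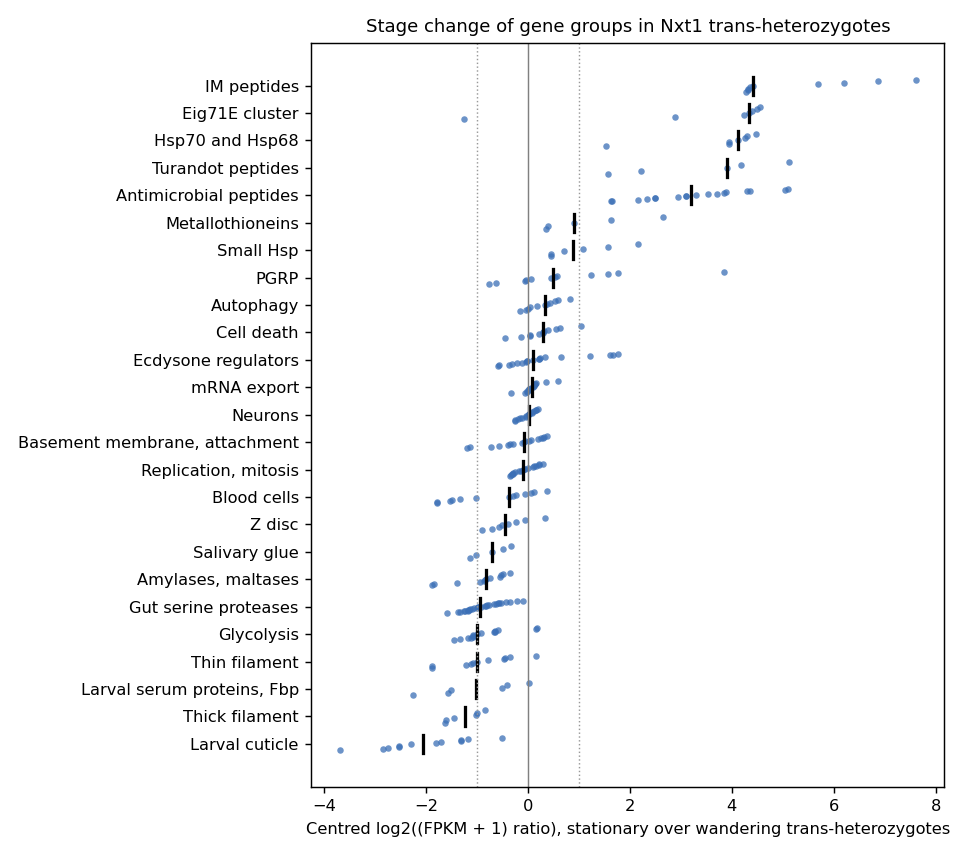
Centred log2 change of each measured entry (points) of 25 gene groups in the trans-heterozygotes, stationary over wandering larvae, with the group's median as a black bar and dotted lines at 2-fold. IM peptides, the Eig71E cluster, Hsp70, Turandot and antimicrobial peptides had medians above 3, and larval cuticle had the lowest median, at -2.06.

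All 18 measured antimicrobial peptide genes of 21 entries were at least 2-fold higher in stationary trans-heterozygotes, with a median centred log2 change of 3.21 against 0.01 over all measured genes. The 3 others, Drsl1, Drsl4 and Drsl6, were below 1 FPKM at both stages. Diptericin (Dpt), a peptide against Gram-negative bacteria, had 713 FPKM in stationary and 77.5 FPKM in wandering trans-heterozygotes. The secreted peptide edin had 200.0 FPKM in stationary and 4.52 FPKM in wandering trans-heterozygotes. The cecropin CecA1 had 170.1 FPKM in stationary and 3.86 FPKM in wandering trans-heterozygotes. Metchnikowin (Mtk), an antifungal peptide, had 205 FPKM and 8.47 FPKM in stationary and wandering trans-heterozygotes. The loci of edin and Mtk overlap other entries, so their values may hold reads of those. Attacin genes, which act on Gram-negative bacteria, moved alike: AttB had 281 FPKM in stationary and 16.8 FPKM in wandering trans-heterozygotes. The most abundant member, the drosomycin relative Drsl5, had one of the smaller changes, with 1152 FPKM in stationary and 343 FPKM in wandering trans-heterozygotes.

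Antimicrobial peptides were also higher in stationary w1118 larvae, where 13 of 17 measured entries were at least 2-fold higher and 1 at least 2-fold lower, with a median of 2.19; among all measured genes of w1118, 2.45% were at least 2-fold higher and 6.13% at least 2-fold lower. The stage change differed between the genotypes for 3 of 16 tested members, all higher in the trans-heterozygotes; over all 10459 tested genes, 0.574% differed in this direction. For Dpt the values in w1118 were 74.0 FPKM in stationary and 32.5 FPKM in wandering larvae, and the stage change was larger in the trans-heterozygotes by 2.01 ± 0.46 on the log2 scale (SE; two-sided normal test, q = 0.00371). Drosocin (Dro), a proline-rich peptide, had 66.5 FPKM in stationary and 3.42 FPKM in wandering trans-heterozygotes, against 7.15 FPKM in stationary and 4.31 FPKM in wandering w1118 larvae. Its difference was 3.55 ± 0.77 (SE; two-sided normal test, q = 0.00136). Drosomycin (Drs), an antifungal peptide whose mention here was chosen after its values were seen, differed by 1.84 ± 0.47 (SE; two-sided normal test, q = 0.0186). The other 13 tested members, edin, CecA1 and Mtk among them, did not pass: edin differed by 2.41 ± 3.30, CecA1 by 2.01 ± 1.48, AttA by 1.57 ± 0.57 and AttB by 1.19 ± 0.50 (SE). Drsl5 lay in the opposite direction, at -1.002 ± 0.333 (SE), and did not pass either (two-sided normal test, q = 0.199).

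The IM peptides, small secreted peptides named as immune-induced molecules of the haemolymph, had the largest changes of any group. All 9 entries were measured and at least 2-fold higher, with a median of 4.41, and 8 of 8 measured entries were higher in w1118, with a median of 2.55. IM3 had 1582 FPKM in stationary and 6.63 FPKM in wandering trans-heterozygotes, a centred log2 change of 7.60, against 282 FPKM in stationary and 36.2 FPKM in wandering w1118 larvae. Its stage change was larger in the trans-heterozygotes by 4.94 ± 1.08 (SE; two-sided normal test, q = 0.00172). IM1 had 287 FPKM in stationary and 2.70 FPKM in wandering trans-heterozygotes, and IM2 had 188 FPKM and 0.525 FPKM in stationary and wandering trans-heterozygotes. The genes for both lie beside IM3, and all 5 entries of that stretch of the genome were at least 2-fold higher. IM4, IM14 and IM23 were listed at 0 in wandering trans-heterozygotes and had 53.8, 19.8 and 20.3 FPKM in stationary ones. The 3 merged entries of CG33470 and IM10 had nearly the same values and may share reads, so they do not count as independent members.

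Peptidoglycan recognition proteins, which sense or degrade bacterial cell wall, were mixed, with 4 of 12 measured entries at least 2-fold higher and 0 lower. PGRP-SB2 was the furthest of them, with 58.0 FPKM in stationary and 2.87 FPKM in wandering trans-heterozygotes, and its change was of the same order in w1118, at 106 FPKM in stationary and 4.15 FPKM in wandering larvae. PGRP-SC2, a gut amidase, was the most abundant, at 425 FPKM in stationary and 617 FPKM in wandering trans-heterozygotes.

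Turandot genes encode secreted peptides that follow heat, infection and other stress. Of 7 entries, 5 were measured and all 5 were at least 2-fold higher, whereas in w1118 1 of 4 was higher and 1 lower. TotA had 1733 FPKM in stationary and 349 FPKM in wandering trans-heterozygotes, against 1731 FPKM in stationary and 1981 FPKM in wandering w1118 larvae. The stationary levels of the genotypes were thus nearly equal, and the wandering level of the trans-heterozygotes stood apart. TotC had 129 FPKM in stationary and 7.18 FPKM in wandering trans-heterozygotes, against 3.91 FPKM in stationary and 17.5 FPKM in wandering w1118 larvae. For TotA the stage change differed by 2.51 ± 0.31 (SE; two-sided normal test, q = 4.84e-13) and for TotC by 6.33 ± 0.87 (q = 4.13e-10 in the same test). TotB had 92.3 FPKM in stationary and 1.50 FPKM in wandering trans-heterozygotes, and its difference of 2.64 ± 1.78 did not pass.

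Hsp70 genes encode the main inducible chaperone, which is nearly silent in unstressed flies. All 6 Hsp70 entries and Hsp68 were at least 2-fold higher in stationary trans-heterozygotes, with a median centred log2 change of 4.12, and none was in w1118, with a median of -0.02. Hsp70Bb had 99.0 FPKM in stationary and 3.20 FPKM in wandering trans-heterozygotes, against 11.2 FPKM in stationary and 10.2 FPKM in wandering w1118 larvae. The level in the trans-heterozygotes was thus below w1118 in wandering larvae and above it in stationary larvae. The stage change of Hsp70Bb differed by 4.81 ± 0.44 (SE; two-sided normal test, q = 1.95e-23), the smallest p of all tested genes. Hsp70Bbb, Hsp70Bc and Hsp70Ba differed by 5.35 ± 0.59, 4.97 ± 0.57 and 5.46 ± 0.63 in the same direction. Hsp70Aa had 109 FPKM in stationary and 5.71 FPKM in wandering trans-heterozygotes and differed by 3.87 ± 0.44. These copies share nearly all of their sequence, and Hsp70Aa is also held in a merged entry with Hsp70Ab, so it is uncertain how reads were divided among them, and they do not count as 6 independent genes. The copies lie in a pair of clusters on arm 3R, at 7779885-7788527 and 8291026-8337183 as the deposited tables give them, counted from 1 (the build is not given in the sources used here).

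The related Hsp68 had 123 FPKM in stationary and 39.2 FPKM in wandering trans-heterozygotes, against 53.4 FPKM in stationary and 33.3 FPKM in wandering w1118 larvae, and its difference of 0.97 ± 0.30 did not pass (two-sided normal test, q = 0.131). Of 6 entries of small heat shock proteins, which hold unfolded proteins and are also ecdysone-responsive, 3 were at least 2-fold higher: Hsp26 had 315 FPKM in stationary and 98.3 FPKM in wandering trans-heterozygotes. The most abundant of them, Hsp23, had 2525 FPKM in stationary and 1444 FPKM in wandering trans-heterozygotes, and none of the 6 passed the test of the difference between genotypes. Of 5 metallothioneins, which bind metal ions, MtnD had 436 FPKM in stationary and 64.0 FPKM in wandering trans-heterozygotes, and MtnE had 43.0 FPKM in stationary and 12.3 FPKM in wandering ones; the other 3 stayed within 2-fold.

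**Figure D2:**
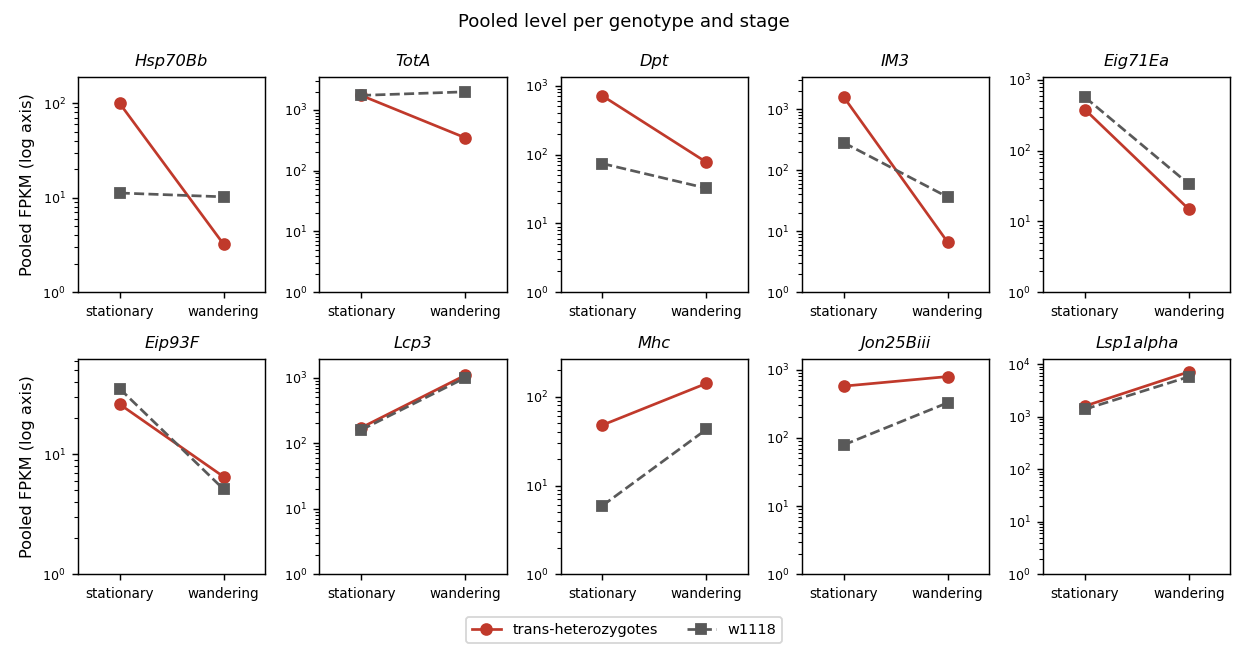
Pooled FPKM on a log axis of 10 genes in stationary and wandering larvae, in trans-heterozygotes (red circles) and w1118 (grey squares); each point is 1 deposited value pooled over 3 samples, so no error can be drawn. Hsp70Bb, TotA, Dpt and IM3 had steeper lines in the trans-heterozygotes, Eig71Ea, Lcp3 and Lsp1alpha had lines of nearly equal slope in both, and Mhc and Jon25Biii had the steeper line in w1118.

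The late ecdysone-induced genes of the 71E cluster are expressed in the salivary gland before metamorphosis. Of 11 Eig71E entries 7 were measured, and 6 of them were at least 2-fold higher in stationary trans-heterozygotes and 1 at least 2-fold lower, with a median of 4.33; in w1118 the counts were 8 higher and 1 lower of 9, with a median of 3.90. Eig71Ea had 382 FPKM in stationary and 14.9 FPKM in wandering trans-heterozygotes, against 571 FPKM in stationary and 33.7 FPKM in wandering w1118 larvae. Eig71Eb had 236 FPKM in stationary and 10.0 FPKM in wandering trans-heterozygotes, against 723 FPKM in stationary and 22.4 FPKM in wandering w1118 larvae. For these 2 genes the FPKM were lower in the trans-heterozygotes than in w1118 at both stages, while the stage changes were of like size. In the authors' deposited test between genotypes, Eig71Ea and Eig71Eb had q = 0.228 and 0.407 in wandering larvae. In stationary larvae that test gave q = 0.0405 and 2.51e-11. The lower wandering levels are thus not shown to differ. The exception in direction was Eig71Ee, the most abundant member, which had 1523 FPKM in stationary and 3399 FPKM in wandering trans-heterozygotes and was lower in stationary w1118 larvae too. None of the 6 tested members passed the test of the difference; that of Eig71Ea, for example, was 0.60 ± 0.61 (SE).

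The cluster spans 15642226-15654909 on arm 3L in the deposited coordinates and also holds CG43084, which stayed within 2-fold. The members Eig71Eh and Eig71Ei were listed at 0 in wandering trans-heterozygotes and stayed below 1 FPKM in stationary ones, and in w1118 they had 1.37 and 1.44 FPKM in stationary larvae.

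Of 19 measured ecdysone receptor and early or mid response genes, 4 were at least 2-fold higher in stationary trans-heterozygotes and 0 lower. Eip93F, a transcription factor of the late larval and prepupal programme, had 26.1 FPKM in stationary and 6.50 FPKM in wandering trans-heterozygotes, against 35.2 FPKM in stationary and 5.11 FPKM in wandering w1118 larvae. The nuclear receptor gene Eip78C had 53.3 FPKM in stationary and 15.8 FPKM in wandering trans-heterozygotes, Hr4 had 32.5 FPKM in stationary and 12.4 FPKM in wandering ones, and the merged entry CG12912,Hr46 had 29.5 FPKM in stationary and 8.02 FPKM in wandering ones. Early genes that respond directly to the hormone stayed near their wandering level: broad (br) had 314 FPKM in stationary and 301 FPKM in wandering trans-heterozygotes, and Eip75B had 80.7 and 77.1 FPKM in stationary and wandering ones. EcR had 46.1 FPKM in stationary and 65.1 FPKM in wandering trans-heterozygotes. The prepupal competence factor ftz-f1 was low at both stages, at 3.27 FPKM in stationary and 3.97 FPKM in wandering trans-heterozygotes. None of the 19 passed the test of the difference between genotypes, and Eip93F, with a difference of -0.78 ± 0.30 (SE), missed the threshold (two-sided normal test, q = 0.415).

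Eip74EF, an ETS-domain early factor, hardly changed in sum, at 66.8 FPKM in stationary and 58.5 FPKM in wandering trans-heterozygotes, but its isoforms exchanged places. One isoform held 53.3% of the gene's FPKM in stationary and 26.4% in wandering trans-heterozygotes, and another held 35.4% in stationary and 60.0% in wandering ones. In w1118 the first of these held 78.9% in stationary and 42.3% in wandering larvae, so the shift had the same direction in both genotypes. In contrast, the leading isoforms of br, EcR and Eip75B moved by fewer than 10 percentage points in the trans-heterozygotes. Isoform values are estimates from shared reads, and no test was made of them.

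Outside the 71E cluster, other genes known to follow the hormone were mixed. Of 10 measured ecdysone effectors 1 was at least 2-fold lower, ImpL3, and 2 were at least 2-fold higher, ImpE3 (59.5 FPKM in stationary and 21.1 FPKM in wandering trans-heterozygotes) and ImpL1 (6.07 FPKM in stationary and 1.38 FPKM in wandering ones). Among 12 cell death genes the activator rpr was the 1 at least 2-fold higher, with 25.8 FPKM in stationary and 11.2 FPKM in wandering trans-heterozygotes. The matrix protease Mmp1, which takes part in tissue remodelling, had 137 FPKM in stationary and 60.0 FPKM in wandering trans-heterozygotes, and the chitinase Cht4 had 20.6 FPKM in stationary and 2.80 FPKM in wandering ones. All 11 measured autophagy genes stayed within 2-fold, Atg8a being at 643 FPKM in stationary and 401 FPKM in wandering trans-heterozygotes. By the centred change so did all 14 measured ecdysone synthesis genes. Among them Ptth was low, at 1.07 FPKM in stationary and 0.266 FPKM in wandering trans-heterozygotes, and the added 1 FPKM shrinks its change.

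Glue proteins are secreted by the salivary gland to fix the puparium, and the glue gene Sgs7 had the highest FPKM of any entry at both stages. It took 8.45% of the summed FPKM in stationary and 14.2% in wandering trans-heterozygotes, at 55332 and 105714 FPKM in stationary and wandering ones. Sgs3 had 8545 FPKM in stationary and 17643 FPKM in wandering trans-heterozygotes. These were the 2 of 5 measured glue genes at least 2-fold lower in stationary trans-heterozygotes, with a list median of -0.71; in w1118 all 5 were at least 2-fold lower, with a median of -1.62. Sgs5, named here after its values were seen, had 4886 FPKM in stationary and 5750 FPKM in wandering trans-heterozygotes, against 2188 FPKM in stationary and 6428 FPKM in wandering w1118 larvae. Its wandering levels were close and its stationary level was the higher in the trans-heterozygotes, a difference in stage change of 1.32 ± 0.32 (SE; two-sided normal test, q = 0.0112). The other 4 did not pass, with Sgs8 at 0.85 ± 0.29 and Sgs7 at 0.01 ± 0.42. Among all tested genes, 0.574% differed in the direction of Sgs5.

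Larval cuticle proteins bind chitin in the larval body wall. Of 15 entries 12 were measured, and 11 of these were at least 2-fold lower in stationary trans-heterozygotes, with a median of -2.06. In w1118 10 of 12 were lower, with a median of -2.08. The close medians do not mean equal changes of each member. Over the 9 tested members the median difference in stage change was 1.01. Centred changes in trans-heterozygotes and w1118 were -2.53 and -4.26 for Lcp65Ab2, and, the other way, -3.68 and -1.80 for Lcp65Ag1. Lcp3 had 171 FPKM in stationary and 1079 FPKM in wandering trans-heterozygotes, against 158 FPKM in stationary and 987 FPKM in wandering w1118 larvae. The most abundant, Lcp1, had 5443 FPKM in stationary and 12647 FPKM in wandering trans-heterozygotes. The lowest ratio was that of Lcp65Ag1, with 0.0727 FPKM in stationary and 11.9 FPKM in wandering trans-heterozygotes. The measured member within 2-fold was Lcp65Ac, at 4.93 FPKM in stationary and 6.94 FPKM in wandering trans-heterozygotes. Lcp2, named here after its values were seen, had 1291 FPKM in stationary and 2725 FPKM in wandering trans-heterozygotes, against 665 FPKM in stationary and 3334 FPKM in wandering w1118 larvae. It was the 1 of 9 tested members whose stage change differed, by 1.25 ± 0.32 (SE; two-sided normal test, q = 0.0194), beside 0.574% of all tested genes in this direction. Lcp65Ab2 is listed as 2 entries with the same values, and its near-identical copy may share reads.

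The cuticle genes of cluster 65A, on arm 3L at 6123486-6154689 in the deposited coordinates, moved as a block, with 11 of 13 measured entries at least 2-fold lower and 0 higher. The merged entry Cpr65Ax1,Cpr65Ax2 of that cluster, listed as 2 entries with the same values, had 0.651 FPKM in stationary and 38.6 FPKM in wandering trans-heterozygotes. Outside the larval list, 40 of 70 entries of the Cpr family of chitin-binding cuticle proteins were measured, with 3 at least 2-fold higher and 14 lower. Cpr49Ac, the most abundant of them, stayed within 2-fold, at 2515 FPKM in stationary and 2020 FPKM in wandering trans-heterozygotes.

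Contractile proteins of muscle were lower in stationary trans-heterozygotes, with smaller median changes than in w1118. For thick filaments 5 of 6 measured entries were at least 2-fold lower, with a median of -1.24, and in w1118 5 of 6 were, with a median of -2.28. The myosin heavy chain gene Mhc had 47.9 FPKM in stationary and 141 FPKM in wandering trans-heterozygotes, against 5.93 FPKM in stationary and 42.9 FPKM in wandering w1118 larvae. The alkali light chain gene Mlc1 had 182 FPKM in stationary and 524 FPKM in wandering trans-heterozygotes, against 46.6 FPKM in stationary and 277 FPKM in wandering w1118 larvae. At both stages the trans-heterozygotes thus had the higher level, and the decline from wandering to stationary larvae was shallower in them. The differences in stage change, 1.30 ± 0.39 for Mhc, 1.04 ± 0.30 for Mlc1 and 1.03 ± 0.30 for Mlc2, did not pass (SE; two-sided normal test, q = 0.0964, 0.0723 and 0.0789), so at this precision the thick filament genes are not shown to differ.

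Thin filament genes had 5 of 11 measured entries at least 2-fold lower, with a median of -0.99, against 8 of 11 and -1.82 in w1118. TpnC47D, a troponin C that binds calcium, had 30.9 FPKM in stationary and 109 FPKM in wandering trans-heterozygotes, and Act57B, a muscle actin, had 347 FPKM in stationary and 754 FPKM in wandering ones. Troponin T (up), named here after its values were seen, had 176 FPKM in stationary and 284 FPKM in wandering trans-heterozygotes, against 60.3 FPKM in stationary and 230 FPKM in wandering w1118 larvae. It was the 1 of 11 tested that differed, by 1.24 ± 0.34 (SE; two-sided normal test, q = 0.0353), beside 0.574% of all tested genes in this direction.

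Scaffold genes of muscle moved less. All 8 Z-disc entries stayed within 2-fold, with Zasp66 at 722 FPKM in stationary and 966 FPKM in wandering trans-heterozygotes. The TRIM32 homologue abba, also known as thin, needed to maintain larval muscle, had 32.2 FPKM in stationary and 23.5 FPKM in wandering trans-heterozygotes, against 54.1 FPKM in stationary and 48.1 FPKM in wandering w1118 larvae. Its difference in stage change was 0.28 ± 0.32 (SE) and did not pass. Among 17 entries of basement membrane and muscle attachment, the 2 collagen IV genes were the ones at least 2-fold lower: vkg had 13.4 FPKM in stationary and 29.8 FPKM in wandering trans-heterozygotes, and Cg25C had 25.0 FPKM in stationary and 52.8 FPKM in wandering ones. Both had nearly the same changes in w1118, with differences of 0.02 ± 0.29 for vkg and -0.03 ± 0.31 for Cg25C (SE).

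Digestive genes of the midgut were lower in stationary trans-heterozygotes, with a smaller median change than in w1118. Of 28 measured serine proteases 11 were at least 2-fold lower in stationary trans-heterozygotes and 0 higher, with a median of -0.95, against 20 of 27 and -1.68 in w1118. Jon65Aiii had 1128 FPKM in stationary and 2746 FPKM in wandering trans-heterozygotes. The trypsin gene thetaTry had 88.9 FPKM in stationary and 199.7 FPKM in wandering trans-heterozygotes, against 24.3 FPKM in stationary and 139 FPKM in wandering w1118 larvae. Jon25Biii, named here after its values were seen, had 576 FPKM in stationary and 796 FPKM in wandering trans-heterozygotes, against 79.0 FPKM in stationary and 328 FPKM in wandering w1118 larvae. These were the 2 of 27 tested proteases whose stage change differed, Jon25Biii by 1.59 ± 0.30 and thetaTry by 1.35 ± 0.33 (SE; two-sided normal test, q = 5.88e-05 and 0.0124). Over all tested genes, 0.574% differed in this direction.

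Among 12 measured amylases and maltases, which split starch and sugars, 3 were at least 2-fold lower; Mal-A1 had 12.4 FPKM in stationary and 44.1 FPKM in wandering trans-heterozygotes. The near-identical amylase copies Amy-d and Amy-p had 103 and 132 FPKM in stationary trans-heterozygotes and 172 and 182 FPKM in wandering ones. Mucins and peritrophins line the gut, and 6 of 10 measured entries were at least 2-fold lower and 1 higher. Muc68Ca had 8.65 FPKM in stationary and 24.3 FPKM in wandering trans-heterozygotes, against 1.74 FPKM in stationary and 13.4 FPKM in wandering w1118 larvae, a difference in stage change of 1.46 ± 0.34 (SE; two-sided normal test, q = 0.00475). Muc68E went the opposite way, with 138 FPKM in stationary and 34.2 FPKM in wandering trans-heterozygotes. The lysozyme genes, several of them near-identical copies, had 1 of 7 entries at least 2-fold higher (LysX, at 93.0 FPKM in stationary and 42.8 FPKM in wandering trans-heterozygotes) and 1 lower (LysC).

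Storage and metabolic genes were lower in part. The hexamerin gene Lsp1alpha, for a larval serum protein made by the fat body, had 1607 FPKM in stationary and 7215 FPKM in wandering trans-heterozygotes, against 1398 FPKM in stationary and 5813 FPKM in wandering w1118 larvae. Lsp1beta and Lsp1gamma were at least 2-fold lower as well, whereas the fat body genes Lsp2, Fbp1 and Fbp2 stayed within 2-fold, Fbp1 at 7485 FPKM in stationary and 6891 FPKM in wandering trans-heterozygotes. Of 15 glycolytic genes 7 were at least 2-fold lower, with a median of -0.99, against 4 lower and 1 higher of 15 in w1118. Gapdh1 had 138 FPKM in stationary and 293 FPKM in wandering trans-heterozygotes, and the lactate dehydrogenase gene ImpL3 had 36.2 FPKM in stationary and 74.4 FPKM in wandering ones. No storage or glycolytic gene passed the test of the difference between genotypes.

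Blood cell genes had 6 of 13 entries at least 2-fold lower. The prophenoloxidase genes proPO45 and proPO-A1, of the crystal cells that make melanin, had 12.6 and 14.0 FPKM in stationary trans-heterozygotes and 43.0 and 47.6 FPKM in wandering ones. The phagocyte receptor gene eater had 8.84 FPKM in stationary and 25.7 FPKM in wandering trans-heterozygotes. In contrast, He, another blood cell gene, had 97.2 FPKM in stationary and 94.2 FPKM in wandering ones.

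Detoxification genes were mostly unchanged or lower: 1 of 62 measured cytochrome P450 entries was at least 2-fold higher and 12 lower, and 6 of 32 glutathione transferases were lower. GstE7 had 29.7 FPKM in stationary and 128 FPKM in wandering trans-heterozygotes. GstT4, named here after its values were seen, had 267 FPKM in stationary and 223 FPKM in wandering trans-heterozygotes, against 117 FPKM in stationary and 203 FPKM in wandering w1118 larvae, and differed by 1.05 ± 0.29 (SE; two-sided normal test, q = 0.0436).

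By the centred log2 change, several groups stayed within 2-fold in every measured member. They were 90 ribosomal proteins (median 0.07), 39 proteasome subunits, 18 replication and mitosis genes, 16 neuronal genes (median 0.01) and 16 mRNA export genes (median 0.08). So did 14 insulin and TOR genes, 10 spermatocyte regulators and 8 ATP synthase subunits. The 1 FPKM added to each value shrinks the change of low-level members. Without it some passed 2-fold: Pros28.1A had 1.78 FPKM in stationary and 0.710 FPKM in wandering trans-heterozygotes. The spermatocyte regulator sa had 3.36 and 1.32 FPKM in stationary and wandering ones, and Ilp8 had 1.43 and 0.286 FPKM. Late spermatogenesis genes had 3 of 42 measured entries at least 2-fold higher and 0 lower in stationary trans-heterozygotes. The sperm leucyl aminopeptidase S-Lap1 had 18.0 FPKM in stationary and 7.09 FPKM in wandering trans-heterozygotes, levels that lay far below the 165 FPKM in stationary and 138 FPKM in wandering w1118 larvae. The sperm tail gene dj had 3.47 FPKM in stationary and 3.61 FPKM in wandering trans-heterozygotes. None of 47 tested members passed the test of the difference in stage change. The labels do not give the sex of the larvae, and the share of males in each pool was not tested.

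Across genes the stage changes of the genotypes ran together but were not of equal size. Over the 10241 entries measured in both, Pearson's r of the changes was 0.62, a description across genes that are not independent replicates and that share the scaling of each stage's tables. Of 303 genes at least 2-fold higher in trans-heterozygotes, 137 (45.2%) were also higher in w1118, which is 56.8% of the 241 higher there. Of 387 genes at least 2-fold lower in trans-heterozygotes, 288 (74.4%) were also lower in w1118, or 44.0% of the 655 lower there. Opposite directions past 2-fold were held by 17 genes higher and 2 genes lower in trans-heterozygotes. The 655 genes lower in w1118 had a median centred log2 change of -0.92 in trans-heterozygotes and -1.51 in w1118. They were chosen by their change in w1118, and that choice alone favours the larger median there.

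**Figure D3:**
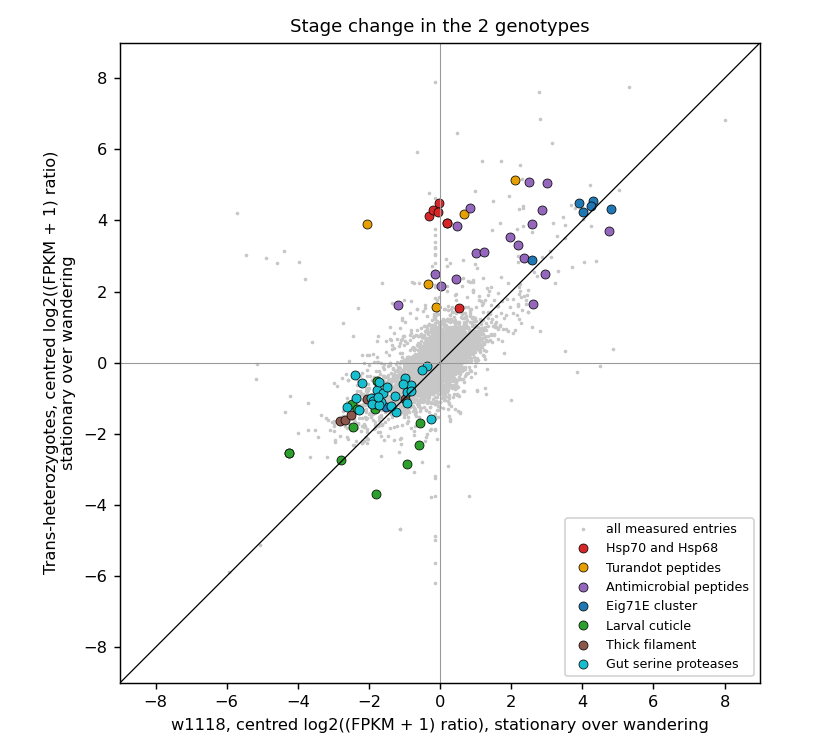
Centred log2 change, stationary over wandering larvae, of the trans-heterozygotes (vertical) against that of w1118 (horizontal). Each grey point is 1 of 10534 entries measured in trans-heterozygotes, some of them below 1 FPKM at both stages in w1118. Coloured points are members of 7 gene groups, also measured in trans-heterozygotes, and the line marks equal change. Hsp70 entries lie near 4 for trans-heterozygotes and near 0 for w1118, Eig71E genes lie near the line, and most gut proteases and thick filament genes lie above it with negative values for both.

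The test of the difference found 60 genes with a higher stage change in trans-heterozygotes than in w1118 (0.574% of 10459) and 9 with a lower one (0.0861%). An unadjusted p under 0.05 was held by 447 of the 10459 genes. That is below the share of 0.05 that would be reached with no difference at all, so it is no sign of further differences. The median standard error of a difference was 0.48 on the log2 scale, and 0.36 for genes with at least 10 FPKM in all 4 groups, so only large differences could pass. Of the 60 genes, 23 were at least 2-fold higher in stationary trans-heterozygotes, 8 at least 2-fold lower and 29 neither, while in w1118 3 were at least 2-fold higher, 34 lower and 23 neither. The direction was thus reached in more than 1 way. Some genes rose from wandering to stationary trans-heterozygotes, and others had a shallower decline than in w1118. A rise did not always mean a stationary level above w1118. TotA had 1733 FPKM in stationary trans-heterozygotes and 1731 FPKM in stationary w1118 larvae. Its wandering level was the lower in trans-heterozygotes, at 349 FPKM against 1981 FPKM in w1118. Of these 60, 41 were in none of the gene lists.

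CG17325, a gene without a name, belongs to those that were flat in the trans-heterozygotes: it had 357 FPKM in stationary and 288 FPKM in wandering trans-heterozygotes, against 36.6 FPKM in stationary and 157 FPKM in wandering w1118 larvae. CG13315, also unnamed, had 554 FPKM in stationary and 526 FPKM in wandering trans-heterozygotes, against 67.4 FPKM in stationary and 270 FPKM in wandering w1118 larvae. Their stage changes differed by 2.41 ± 0.35 and 2.08 ± 0.31 (SE; two-sided normal test, q = 6.19e-09 and 2.63e-08). Both had the higher level in trans-heterozygotes at each stage, and the gap was wider in stationary larvae.

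In the other direction, of the 9 genes with a lower stage change in trans-heterozygotes, 4 were at least 2-fold lower there and none in w1118. CG11350 had 1.63 FPKM in stationary and 33.1 FPKM in wandering trans-heterozygotes, against 1.20 FPKM in stationary and 1.37 FPKM in wandering w1118 larvae, so its wandering level in trans-heterozygotes stood apart from the other 3 values. The mitochondrial cytochrome P450 gene Cyp12d1-d, which has a near-identical neighbour, had 15.1 FPKM in stationary and 34.2 FPKM in wandering trans-heterozygotes, against 14.6 FPKM in stationary and 10.5 FPKM in wandering w1118 larvae. Their differences were -4.14 ± 0.89 and -1.65 ± 0.37 (SE; two-sided normal test, q = 0.00132 and 0.0026). The citrate synthase gene kdn, with 69.7 FPKM in stationary and 95.5 FPKM in wandering trans-heterozygotes against 104.8 FPKM in stationary and 70.0 FPKM in wandering w1118 larvae, differed by -1.04 ± 0.28 (q = 0.0325 in the same test).

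**Figure D4:**
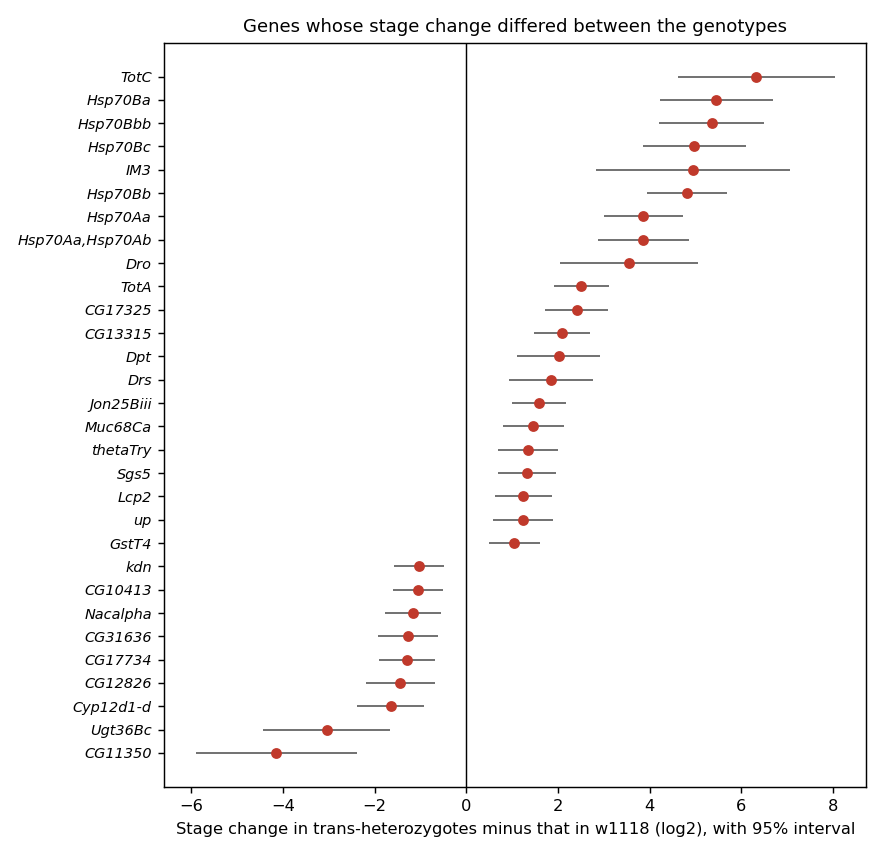
Difference of the stage change (log2, stationary over wandering) between trans-heterozygotes and w1118 for 30 named genes that passed the test, with 95% intervals from the derived standard errors. The 21 positive values run from 1.05 for GstT4 to 6.33 for TotC, and the 9 negative ones from -1.04 for kdn to -4.14 for CG11350.

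The extreme ends of the distribution were partly made of short RNAs. Of the 15 largest higher changes, 6 were entries for small nucleolar RNAs, microRNA precursors or a ribosomal RNA, as were 9 of the 15 largest lower ones, and most were listed at 0 at one stage. FPKM of such short transcripts rest on few fragments, and their values are not read further. Among the unnamed genes, CG42680 had 229 FPKM in stationary trans-heterozygotes and was listed at 0 in wandering ones. Its locus is short too, at 14587988-14588234 on arm 2L. In w1118 it had 42.5 FPKM in stationary larvae and was also listed at 0 in wandering ones. CG42792 had 70.9 FPKM in stationary and 0.878 FPKM in wandering trans-heterozygotes. CG13422 had 49.1 FPKM in stationary trans-heterozygotes and was listed at 0 in wandering ones.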

How the data were processed

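RNA of whole larvae was made into ScriptSeq libraries and read from both ends (Illumina HiSeq), per the labels' protocols. Bowtie 1.1.1, Cufflinks and Cuffdiff are named in the submitters' processing notes; settings, genome build and gene models were not given in the sources used here. Of 18 deposited tables, 6 for the larval stages were looked at for genes, isoforms and start-site groups. FPKM are the authors' values, 1 per genotype and stage pooled over samples, per the file headers, and each stage's tables were scaled separately. The test statistic, a score, and the p-value and q-value of trans-heterozygotes over w1118 are deposited per the file headers.

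From these, centred log2 changes were computed with a pseudocount of 1 FPKM, and log2 fold changes between genotypes without one. The standard error was the size of the log2 fold change over that of the statistic; the deposited p matched a normal tail of the statistic, within 0.0001, in 100% of genes. Differences and their errors (root of the summed squares) were tested with a two-sided normal test, adjusted (q) over all tested genes, and the code was tested on simulated data. Called meant a q of at most 0.05. No depth is known, so precision is given by these errors alone.

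The members and the 44 gene lists were chosen with earlier results of these data known. Named were Nxt1, sbr and abba; the 15 largest changes in each direction at 5 FPKM or more; the 3 largest per direction among CG or CR numbers; per list the 4 largest changes and 2 highest levels; the 10 smallest p per direction of difference; and the 5 largest isoform shifts. Some genes of that selection are given only by count. Of the entries, 448 hold several symbols and 5896 overlap another entry, and 70 had a failed status. Locus starts were counted from 1. No sequence is printed. Python 3.11.15, pandas 2.3.3, numpy 2.4.6, scipy 1.17.1 and matplotlib 3.10.9 were used. Alternatives were other pseudocounts, centrings, level filters and thresholds, start-site sums, and leaving out merged, overlapping or short RNA entries.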

Additional observations from a re-analysis of the deposited data

Results flagged for a closer look

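The stage change differed between the genotypes for the genes below (trans-heterozygotes minus w1118, log2 scale; two-sided normal test with Benjamini-Hochberg adjustment over all tested genes). No cause was tested. Higher in trans-heterozygotes were the stress genes TotC (6.33), TotA (2.51), Hsp70Ba (5.46), Hsp70Bbb (5.35), Hsp70Bc (4.97), Hsp70Bb (4.81), Hsp70Aa (3.87) and the merged entry Hsp70Aa,Hsp70Ab (3.86). The immune peptide genes were IM3 (4.94), Dro (3.55), Dpt (2.01) and Drs (1.84). Genes with a shallower decline than in w1118, or none, were CG17325 (2.41), CG13315 (2.08), Jon25Biii (1.59), Muc68Ca (1.46), thetaTry (1.35), Sgs5 (1.32), Lcp2 (1.25), up (1.24) and GstT4 (1.05).

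Lower in trans-heterozygotes were CG11350 (-4.14), Ugt36Bc (-3.05), Cyp12d1-d (-1.65), CG12826 (-1.44), CG17734 (-1.29), CG31636 (-1.28), Nacalpha (-1.16), CG10413 (-1.06) and kdn (-1.04). Ugt36Bc, a glycosyltransferase gene, had 1.63 FPKM in stationary and 3.55 FPKM in wandering trans-heterozygotes, against 5.66 FPKM in stationary and 1.49 FPKM in wandering w1118 larvae. Nacalpha, of the complex that binds nascent chains at the ribosome, had 792 FPKM in stationary and 1611 FPKM in wandering trans-heterozygotes, against 1690 FPKM in stationary and 1535 FPKM in wandering w1118 larvae, and its locus overlaps another entry.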

How the results depend on the processing

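The 337 genes at least 2-fold higher in stationary trans-heterozygotes became 511 with a pseudocount of 0.1 FPKM, 206 with 5 FPKM and 216 without merged or overlapping entries, a set with fewer genes. The 434 lower genes became 223 with a pseudocount of 5 FPKM. Without centring 398 genes were higher and 346 lower, and centred on ribosomal protein genes 305 were higher and 493 lower. Without short RNA entries, an alternative chosen after seeing the data, 303 of 10469 were higher and 418 lower. At an adjusted p of 0.01, 39 genes differed upward and 4 downward, instead of 60 and 9. Single genes were recomputed only where named by the rule, and among these no change past 2-fold and no called difference changed sign; for list medians 16 recomputed values moved by over 0.5 on the log2 scale and 424 did not, and for named genes 107 moved and 1483 did not. No paired analysis was possible because the tables hold 1 pooled value per genotype and stage; fits without 1 replicate were not run for the same reason. Depth is unknown, and genes of low FPKM carry the largest errors.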

Other observations

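After the glue gene Sgs7, the odorant-binding protein gene Obp99b was the most abundant message of the trans-heterozygotes at both stages, with 11999.7 FPKM in stationary and 22420 FPKM in wandering larvae. The non-coding entry CR40469 had 10615 FPKM in stationary and 3633 FPKM in wandering trans-heterozygotes, against 195 FPKM in stationary and 249 FPKM in wandering w1118 larvae. Its difference in stage change of 1.90 ± 0.54 (SE) missed the threshold (two-sided normal test, q = 0.0651), and both of its levels in trans-heterozygotes lay above w1118.

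Genes that were at least 2-fold higher had short loci: among entries with a locus of their own, the median length was 0.81 kb for 209 higher genes, 1.6 kb for 294 lower genes and 2.42 kb for all 6052 measured. On chromosome 4, 0 of 80 measured genes passed 2-fold in either direction, against 3.2% higher and 4.12% lower over all measured genes. With so few genes on this chromosome, no result about it is drawn from the count. Isoform shares shifted by at least 20 percentage points in 325 of 3001 genes with several isoforms and at least 10 FPKM at both stages. The largest shift was in sta, a ribosomal protein gene, where 1 of 3 isoforms held 4.32% in stationary and 99.7% in wandering trans-heterozygotes while in w1118 its share moved by less than 1 percentage point. These shares are estimates from shared reads and have no error.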
